A study of Mus musculus with 12 samples.

Results

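Genes that act on lipoproteins in plasma or in the liver cell that makes them were followed in the livers of Ppara KO and WT mice, 9 in all. They are the lipase genes Lpl and Lipc, the lipase inhibitor genes Angptl4 and Angptl8, Mttp, which loads lipid onto nascent particles, the plasma transfer and esterification genes Pltp and Lcat, and the cell surface lipid transporter and receptor genes Abca1 and Scarb1. The genes were chosen by name, and each was read from the transcript clusters that the platform annotation gives that single symbol, with the brightest cluster standing for the gene. In this way 8 of the 9 were measured, among 22180 genes in all, and Lipc was not analysed here.

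The animals were adult female mice of 12 to 14 weeks on the C57Bl/6 background, 6 Ppara KO and 6 WT, and liver RNA of each was hybridised to 1 Affymetrix MoGene-2_0-st array. The labels do not say which part of Ppara was disrupted or in which cells, nor when the livers were taken or whether the mice had eaten. Values are log2 expression after RMA, a procedure that brings arrays to a common distribution, and differences are Ppara KO minus WT on that log2 scale with the standard error (SE) of limma. A gene was called higher or lower at a Benjamini-Hochberg adjusted p under 0.05 over all 22180 genes, and 10.2% of them were called, 4.46% higher and 5.77% lower.

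Triglyceride-rich particles leave the liver as VLDL after the microsomal transfer protein MTP, the Mttp product, has added lipid to apolipoprotein B. In the capillaries of muscle and fat, lipoprotein lipase (LPL) splits their triglyceride, and the angiopoietin-like proteins ANGPTL4, which rises in fasting, and ANGPTL8, which rises after feeding, restrain that enzyme in different tissues. PLTP moves phospholipid from these particles to HDL, LCAT esterifies the cholesterol of HDL, ABCA1 loads lipid onto apolipoprotein A-I and the receptor SR-BI, encoded by Scarb1, returns HDL cholesterol to the liver. PPARα, the product of Ppara, is a nuclear receptor activated by fatty acids, and Angptl4 is among its classical target genes.

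Promoter windows of RefSeq (GRCm38.p6) were found by symbol for 6 of the 9 genes, Angptl8, Lipc, Lcat, Pltp, Mttp and Abca1. The 250 bases before the annotated start are shown for Pltp and Mttp, the 2 genes whose expression values did not overlap between the genotypes. They lie at chr2:164857709-164857958 and chr3:138143419-138143668, both on the minus strand, and capitals mark a CCAAT box, here on the opposite strand.
Pltp: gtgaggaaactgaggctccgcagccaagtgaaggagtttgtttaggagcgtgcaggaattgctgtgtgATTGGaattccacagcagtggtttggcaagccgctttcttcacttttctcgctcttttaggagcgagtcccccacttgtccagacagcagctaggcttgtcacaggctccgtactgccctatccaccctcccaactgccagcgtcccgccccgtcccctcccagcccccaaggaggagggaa
Mttp: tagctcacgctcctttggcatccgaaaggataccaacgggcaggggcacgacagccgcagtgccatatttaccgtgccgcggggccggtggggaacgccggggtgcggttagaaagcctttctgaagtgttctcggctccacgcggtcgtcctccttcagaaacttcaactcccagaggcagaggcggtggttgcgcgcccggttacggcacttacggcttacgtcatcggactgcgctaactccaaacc
Letters were searched on both strands for the nuclear receptor core site AGGTCA, the DR1 element that PPARα and its partner RXR can bind (AGGNCA repeated after 1 free base, which can overlap the core site), the E-box CACGTG and the D-box TTATGTAA of clock factors, and CCAAT. The Pltp window held CCAAT alone, between -182 and -178 from the start, a motif found in 33.8% of all 32851 windows of this length. The Mttp window held none of the 5. Of all windows 14% held the core site, 0.338% the DR1 element, 6.02% the E-box and 0.819% the D-box, so most windows lack any given one of these motifs, and a missing motif says only that its letters are not within these bases.

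The genotypes were well apart in these livers, with the PPARα target gene Cyp4a14, a fatty acid omega-hydroxylase gene, at 4.82 ± 0.98 in Ppara KO and 10.41 ± 0.44 in WT livers (mean ± SD, n = 6 each), and Vnn1, a pantetheinase gene, at 3.77 ± 0.36 against 7.68 ± 0.30 in WT. Ppara itself was at 8.01 ± 0.13 in Ppara KO and 7.98 ± 0.16 in WT livers, but where its cluster lies relative to the disrupted part is not known here, so it checks no label. The 9 hepatocyte markers measured had a mean of 12.47 to 12.53 in Ppara KO and 12.46 to 12.51 in WT livers, against array medians of 4.13 to 4.17. Clock state differed with the genotype, with 15 of 16 clock genes called, or 93.8% against 10.2% of all genes. Dbp, a clock output gene, was at 9.83 ± 0.42 in Ppara KO and 6.34 ± 0.39 in WT. Arntl, the BMAL1 gene, was at 5.74 ± 0.75 in Ppara KO against 8.53 ± 0.11 in WT. Genotype and clock state thus cannot be told apart in any difference given here. Adipocyte markers were high in WT 1, 3 and 5. Differences without these animals are given for Lpl, Angptl4 and Pltp, and for the pathway genes only as counts of calls.

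Of the 8 genes measured, 3 were lower in Ppara KO livers, Angptl4, Pltp and Lpl, and 0 were higher. The other 5, Angptl8, Mttp, Lcat, Abca1 and Scarb1, did not pass the test. The 3 calls stand beside a background of 10.2% of all genes, which is not matched for expression level. All 8 lay above the median level of all genes. With only genes at or above that level fitted, 1258 were higher and 1544 lower, against 989 and 1279 in the fit of all genes. The share called among such genes was thus above 10.2%. The median difference of the 8 genes was -0.15, against 0.01 over all genes, and their median size regardless of sign was 0.32, against 0.10 over all genes.

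**Figure D1:**
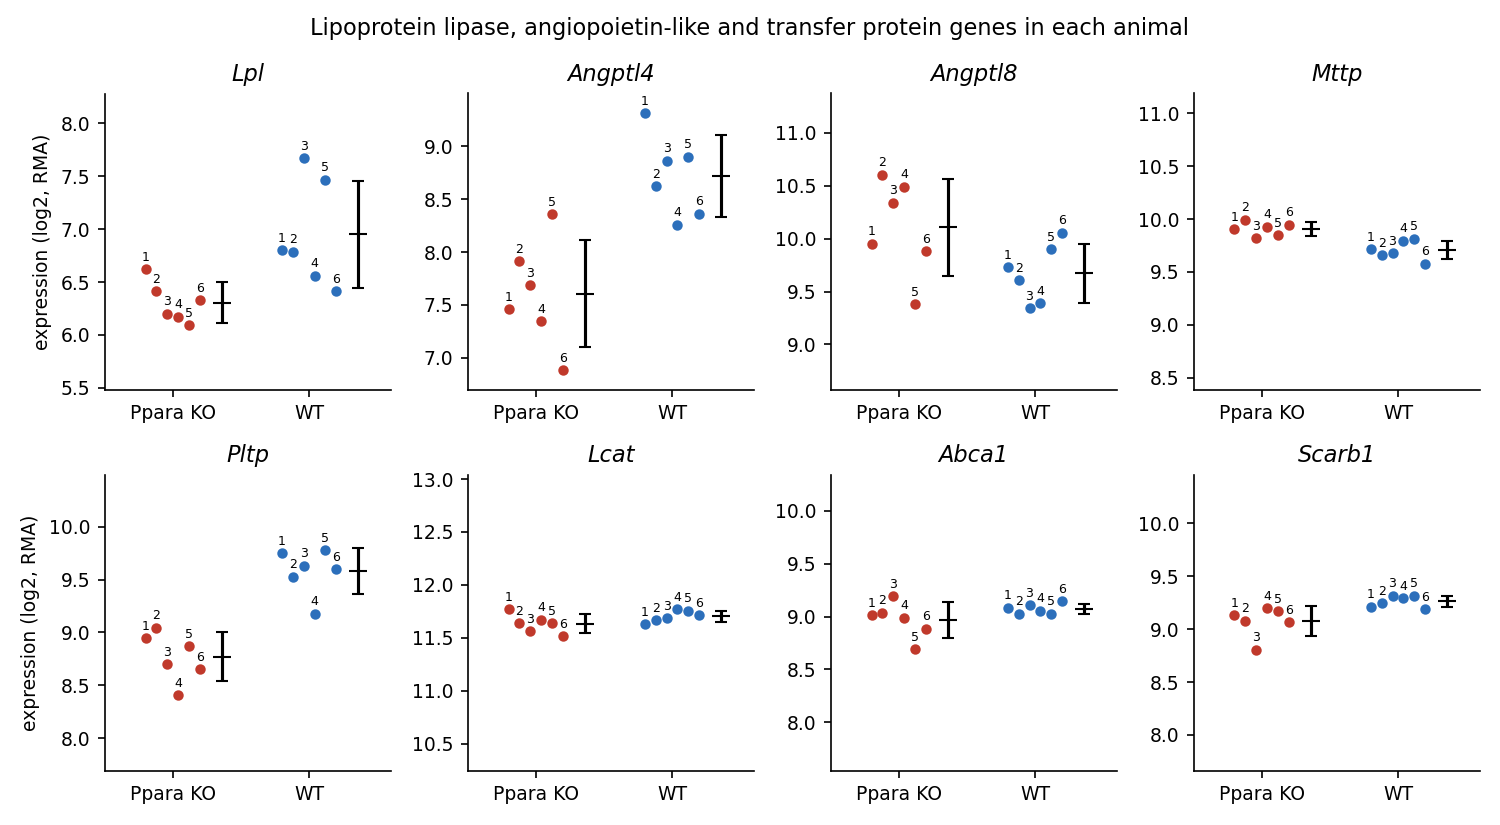
Log2 expression of each of the 8 genes in every animal, Ppara KO left and WT right in each panel. Numbers are the animals of each genotype, black bars give the mean ± SD of 6 animals, and every panel spans the same log2 range. Pltp and Mttp separate the genotypes without overlap, Mttp only narrowly, while Lpl has 2 high WT animals, 3 and 5.

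Lpl encodes the lipase that frees fatty acids from circulating triglyceride, an enzyme made mainly by fat, muscle and macrophages and little by adult hepatocytes. Its log2 value had a lowest, median and highest of 6.09, 6.26 and 6.62 in Ppara KO livers and 6.42, 6.79 and 7.67 in WT livers. The groups overlapped, and the 2 highest values, 7.67 and 7.47, were those of WT 3 and WT 5. Lpl fell by 0.65 (SE 0.188), or 1.56-fold, with an adjusted p of 0.0395, close to the threshold. Without WT 3 the difference was -0.50 and the adjusted p 0.0691, and the call ended without any 1 of 9 of the 12 animals.

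WT 3 and WT 5 were also the animals richest in adipocyte markers. The mean of 9 such markers was 4.20 to 4.46 in Ppara KO livers. In WT livers it was 5.95 in WT 3, 5.90 in WT 5 and 5.22 in WT 1, and 4.42 to 4.73 in the other 3. Of these 9 markers 3, Adipoq, Plin4 and Lipe, were called lower and 0 higher, or 33.3% called against 10.2% of all genes. Adipoq, the adiponectin gene that defines the cell type, was at 3.33 to 3.67 in Ppara KO livers, below the array medians, and at 3.61 to 5.41 in WT livers. Lpl, which is not on the marker list, correlated with the marker mean within WT animals at r = 0.91 (Spearman's rho 0.83, n = 6, exact permutation p 0.0194 and 0.0583, adjusted 0.292 and 0.490 over 84 relations). Without the 2 animals farthest from the median marker level r was 0.36. That r comes from few animals over a narrower marker range, so how far the relation rests on the 2 was not settled. Within Ppara KO animals r was 0.45 (rho 0.60, exact permutation p 0.394 and 0.242, adjusted 0.705 and 0.580, r = 0.74 without the 2 farthest).

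Without WT 1, 3 and 5 the Lpl difference was -0.28 (SE 0.125, adjusted p 0.251), and with the marker mean as a covariate, an alternative chosen after seeing the data, it was -0.14 (SE 0.140, adjusted p 0.689). In RNA of whole liver, fewer cells of a type and less RNA per cell cannot be told apart. Kupffer cell and macrophage markers, 11 measured with 1 higher (Cd5l) and 0 lower, had a mean of 7.66 to 8.39 in Ppara KO and 7.42 to 7.85 in WT livers, with overlapping ranges. Markers of stellate cells and fibroblasts, 8 measured with 0 called, had a mean of 6.72 to 6.86 in Ppara KO and 6.70 to 7.15 in WT livers, and were highest in WT 3 (7.15) and WT 5 (7.12), the same animals as for Lpl. Over the 12 arrays the deviations of Lpl from the genotype means correlated with those of the adipocyte marker mean at r = 0.87, of the stellate and fibroblast mean at 0.80 and of the Kupffer cell mean at 0.38, and the part of these cells in the difference was not tested. A second, dim cluster of Lpl read 2.74 in Ppara KO and 3.08 in WT livers on average, with a difference of -0.35 (SE 0.131, adjusted p 0.165 over all 41345 clusters).

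**Figure D2:**
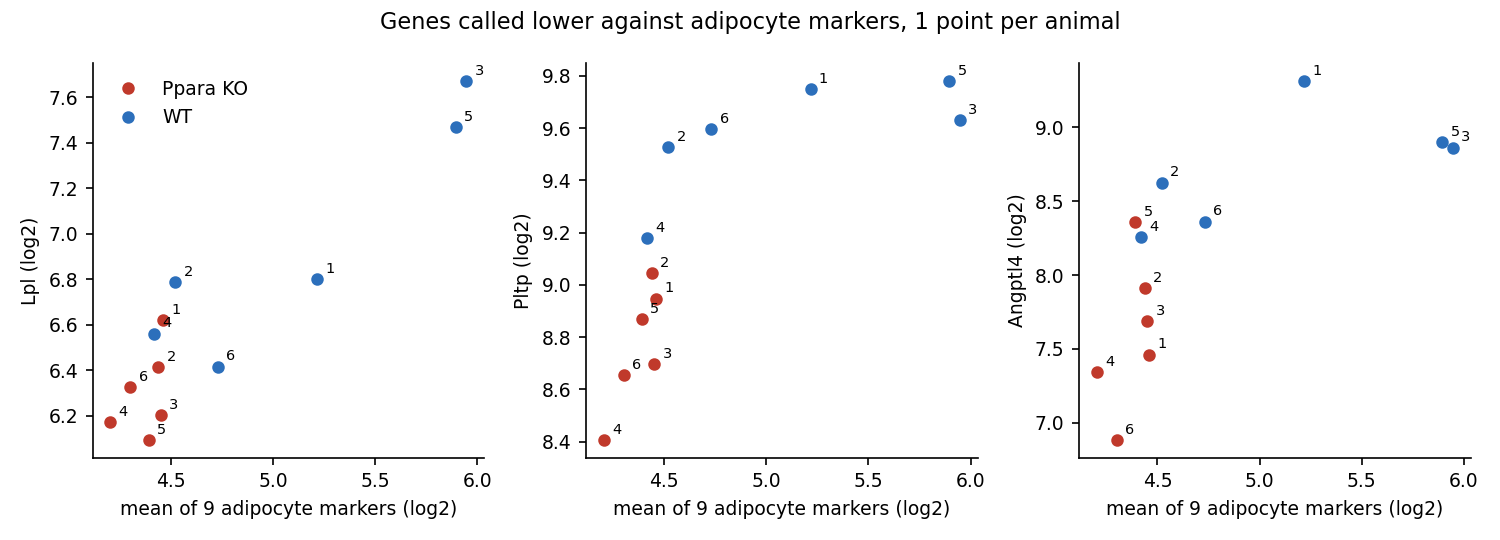
Log2 expression of Lpl, Pltp and Angptl4 (vertical axes) against the mean log2 value of 9 adipocyte markers (horizontal axes), 1 point per animal, numbered, with Ppara KO in red and WT in blue. WT 3 and WT 5 lie at the upper right for Lpl, and WT 4, at 4.42, is the 1 WT animal within the marker range of the Ppara KO animals. All Ppara KO animals lie below WT 4 in Pltp, and all but number 5 do in Angptl4.

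Angptl4 encodes a secreted inhibitor that turns LPL inactive and spares triglyceride for other tissues in fasting. Its log2 value had a lowest, median and highest of 6.88, 7.57 and 8.36 in Ppara KO livers and 8.26, 8.74 and 9.31 in WT livers. The highest Ppara KO animal, number 5, lay within the WT range, above WT 4 at 8.26 and level with WT 6 at 8.36, and the other 5 lay below all WT animals. Angptl4 fell by 1.11 (SE 0.219), or 2.16-fold, with an adjusted p of 0.00423. Its mean remained well above the array medians in Ppara KO livers, at 7.61 ± 0.51, against 8.72 ± 0.39 in WT (SD, n = 6 each).

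Leaving out any 1 animal gave differences of -1.26 to -0.97, and the call stood each time. Adipocytes express Angptl4 too, and without WT 1, 3 and 5 the difference was -0.81 (SE 0.248) with an adjusted p of 0.0952, so the call ended with 3 WT animals left. With the adipocyte marker mean as a covariate it was -0.81 as well (SE 0.267, adjusted p 0.113). Over the 12 arrays the deviations of Angptl4 correlated at r = 0.44 with those of the adipocyte marker mean, 0.52 with the Kupffer cell and macrophage mean and 0.51 with the lymphocyte and leukocyte mean. Beyond these values the part of other cells in the difference was not tested.

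Within each genotype Angptl4 was set against other PPARα target genes. Of 15 classical targets measured, 12 correlated with it above 0 among Ppara KO animals (median r 0.40) and 15 among WT animals (median r 0.59). This is a description over 6 animals each, whose genes share the same arrays. The share of all genes above 0 was not computed, so the counts do not set these targets apart. The 3 below 0 in Ppara KO were Ehhadh (-0.65), Pdk4 (-0.09) and Acadm (-0.03). Plin2, a lipid droplet coat gene, is given as the target whose deviations correlated most with those of Angptl4 over the 12 arrays (0.79). It gave r = 0.80 in Ppara KO (rho 0.71, exact permutation p 0.0639 and 0.136) and 0.81 in WT (rho 0.77, exact permutation p 0.0278 and 0.103). Adjusted over the 84 relations the p-values of r were 0.336 and 0.298. Without the 2 animals farthest from the median r was 0.16 in Ppara KO and 0.22 in WT. With few animals left over a narrower range, how far the relation rests on the end animals was not settled. Cyp4a14 gave r = 0.84 in Ppara KO and 0.59 in WT (exact permutation p 0.0528 and 0.2125, adjusted 0.336 and 0.533). Without the 2 farthest animals these were -0.30 and 0.89. Ehhadh, at -0.65 in Ppara KO, gave 0.90 in WT (exact permutation p 0.156 and 0.00972, adjusted 0.481 and 0.292). Ppara KO 6 had the lowest Angptl4, Plin2 and Cyp4a14 of all 12 animals, at 6.88, 8.80 and 3.50, and Ppara KO 5 the highest Angptl4 and Cyp4a14 of its genotype, at 8.36 and 6.44.

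Angptl8 encodes a feeding-induced secreted protein that takes part in restraining LPL, and its difference had the other sign without passing the test. Its log2 value had a lowest, median and highest of 9.38, 10.15 and 10.60 in Ppara KO livers and 9.34, 9.67 and 10.06 in WT livers. Ppara KO 2, 3 and 4 lay above all WT animals, while Ppara KO 5 lay near the WT low end. The difference was 0.44 (SE 0.187, 95% interval 0.04 to 0.84, adjusted p 0.171), and without Ppara KO 5 it was 0.58 with an adjusted p of 0.0315. The call thus turned on 1 animal, the one with the highest Angptl4 of its genotype.

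Igfbp1, an insulin-suppressed gene of hepatocytes picked out after the values were seen, ran opposite to Angptl8 in both genotypes. The correlation was r = -0.95 in Ppara KO (rho -0.94, n = 6, exact permutation p 0.00556 and 0.0167) and r = -0.85 in WT (rho -0.94, exact permutation p 0.0208 and 0.0167). Without the 2 animals farthest from the median it was -0.98 and -0.97, but adjusted over the 84 relations no p-value passed, with 0.292 for each r and 0.35 for each rho. Igfbp1 was 1 of 19 feeding and fasting genes set against Angptl8. Of the 19, 8 correlated above 0 and 11 below in Ppara KO, and 12 and 7 in WT. Among the fasting genes, Irs2 had the sign of Igfbp1 (r = -0.76 in Ppara KO and -0.58 in WT). Pdk4 (0.24 and 0.77) and Fgf21 (0.24 and 0.68) had the other sign. Igfbp1 itself fell by 1.16 (SE 0.163, adjusted p 0.000299), with 9.09 to 10.22 in Ppara KO livers and 10.73 to 10.96 in WT livers.

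**Figure D3:**
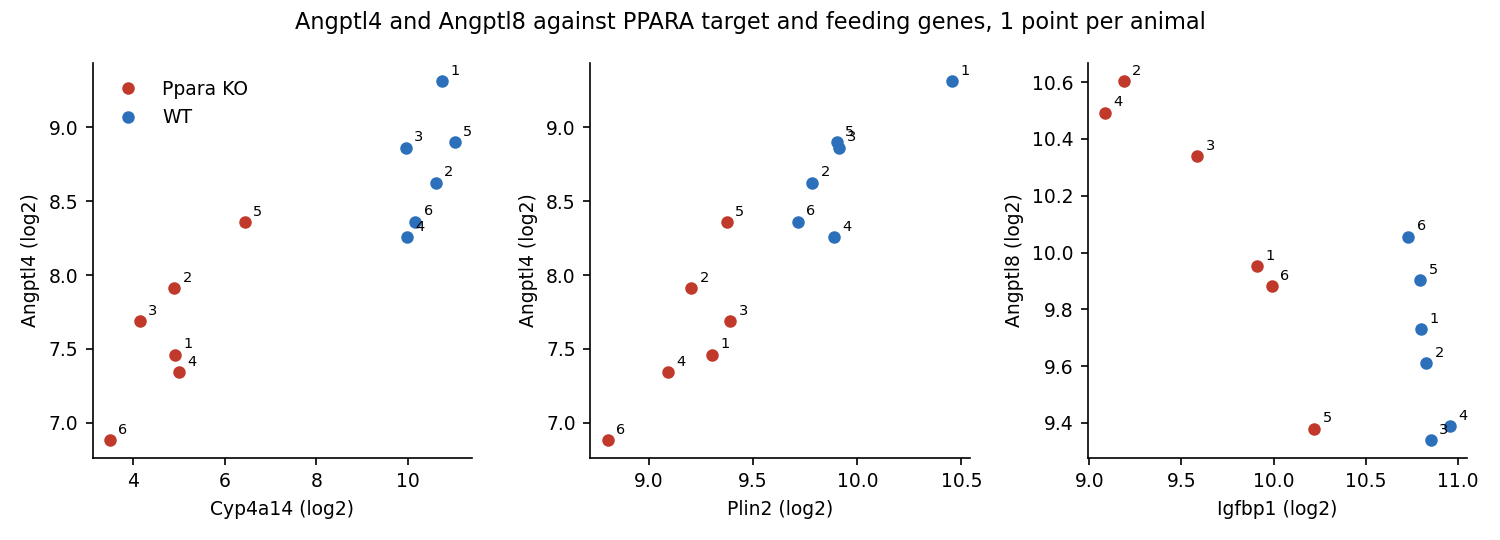
Log2 expression of Angptl4 against Cyp4a14 and against Plin2, and of Angptl8 against Igfbp1, 1 point per animal, numbered, with Ppara KO in red and WT in blue. Ppara KO 6 is lowest in both of the first 2 panels, and in the third Angptl8 is lower in animals with more Igfbp1 within either genotype, with r = -0.95 in Ppara KO and -0.85 in WT.

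Mttp encodes the lipid-carrying subunit of MTP, without which the liver cannot secrete VLDL. Its log2 value had a lowest, median and highest of 9.82, 9.92 and 9.995 in Ppara KO livers and 9.58, 9.70 and 9.82 in WT livers. All Ppara KO values lay above all WT values, by a gap smaller than the rounding shown, an arrangement that 6.51% of all genes had in one direction or the other. The difference was 0.20 (SE 0.063, 95% interval 0.06 to 0.33), a 1.15-fold higher level, and its adjusted p of 0.0587 just missed the threshold. It passed with a variance prior that follows intensity (adjusted p 0.0136), when only genes of median level or higher were fitted (0.0179) and without WT 5 (0.0496).

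Pltp encodes the phospholipid transfer protein, which remodels HDL and is also taken up into nascent VLDL. It separated the genotypes most clearly of the 8, with a lowest, median and highest log2 value of 8.41, 8.78 and 9.05 in Ppara KO livers and 9.18, 9.61 and 9.78 in WT livers. No values overlapped, and the animals nearest to each other were Ppara KO 2 at 9.05 and WT 4 at 9.18. Pltp fell by 0.81 (SE 0.118), or 1.75-fold, with an adjusted p of 0.000434. Its call stood in every alternative fit of the gene, with differences from -0.89 to -0.61.

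Macrophages, endothelial cells and adipocytes also make Pltp. Within genotypes it correlated with the adipocyte marker mean at r = 0.84 in Ppara KO (rho 0.71, exact permutation p 0.0292 and 0.136) and 0.71 in WT (rho 0.83, exact permutation p 0.0861 and 0.0583), with adjusted p-values of r of 0.298 and 0.356 over the 84 relations. Without the 2 animals farthest from the median r was -0.01 in Ppara KO and 0.84 in WT. Without WT 1, 3 and 5 the Pltp difference was -0.66 (SE 0.143, adjusted p 0.0224), and with the marker mean as a covariate -0.61 (SE 0.137, adjusted p 0.0216). Over the 12 arrays its deviations correlated most with those of the Kupffer cell and macrophage mean (r = 0.66), against 0.57 for adipocyte, 0.52 for stellate cell and fibroblast and 0.11 for endothelial markers. Kupffer cell and macrophage markers averaged 7.87 in Ppara KO and 7.69 in WT livers, and endothelial markers, 9 measured with 0 called, 8.10 in Ppara KO and 8.17 in WT livers. The part of these cells in the Pltp difference was not tested.

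Lcat encodes the plasma enzyme that esterifies cholesterol on HDL and is made almost wholly by hepatocytes. Its log2 value had a lowest, median and highest of 11.52, 11.64 and 11.77 in Ppara KO livers and 11.63, 11.70 and 11.77 in WT livers. The ranges lay largely over each other. The difference was -0.07 (SE 0.062, 95% interval -0.20 to 0.06, adjusted p 0.559), so a change of either sign within that interval was not resolved.

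Abca1 encodes the transporter that starts HDL formation and is a target of the oxysterol receptor LXR. On the log2 scale its lowest, median and highest values were 8.69, 9.001 and 9.19 in Ppara KO livers and 9.03, 9.07 and 9.14 in WT livers. The WT animals lay within the Ppara KO range, and the SD was 0.168 in Ppara KO and 0.046 in WT. The difference was -0.11 (SE 0.077, 95% interval -0.27 to 0.06, adjusted p 0.467). Without Ppara KO 5, the lowest animal, it was -0.05 (adjusted p 0.732).

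Scarb1 encodes SR-BI, the receptor through which liver takes up cholesterol ester from HDL. The lowest, median and highest log2 values were 8.81, 9.11 and 9.20 in Ppara KO livers and 9.19, 9.27 and 9.32 in WT livers. The groups touched only at their edge, and Ppara KO 3 stood apart at the low end. The difference was -0.19 (SE 0.072, 95% interval -0.34 to -0.03), and at an adjusted p of 0.125 it was not called.

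Deviations from the genotype means were correlated between some of the genes over the 12 arrays. Angptl8 and Abca1 varied together (r = 0.69), as did Angptl4 and Pltp (0.63), whereas Abca1 and Scarb1 varied in opposite directions (-0.66). These were the largest correlations in size among all pairs of the 8 genes and are given as a description. Ppara KO 3 had the highest Abca1 (9.19) and the lowest Scarb1 (8.81) of all animals. Ppara KO 5 had the lowest Abca1 of all animals (8.69) and the lowest Angptl8 of its genotype (9.38). How far the correlations of these pairs rest on such single animals was not tested. Angptl4 and Angptl8 had r = -0.15, and Angptl4 and Lpl 0.19.

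Among 10353 genes at or above the median level, the 3 whose deviations were most like those of Lpl were Slc1a5, an amino acid transporter gene (r = 0.96), Tfdp1, a partner of E2F factors (0.92), and Lum, the gene of the fibroblast proteoglycan lumican (0.89). For Angptl4 they were Lrwd1 (0.93), Tmem86a (0.90) and Slc7a7 (0.90), and for Pltp Tmem131 (0.91), Rbm33 (0.91) and Sp110 (0.89). Those of Angptl8 were Pik3r1, a regulatory subunit gene of PI3 kinase (0.90), Nudt5 (0.90) and Spaca6 (0.90), and those of Mttp were Psmd6 (0.91), Uchl5 (0.91) and Tm9sf3 (0.90). Lcat ran with Ltbp1 (0.91), Nsdhl (0.88) and Ldha (0.86), Abca1 with Clptm1 (0.92), Uxs1 (0.89) and Ubl3 (0.88), and Scarb1 with Pdlim1 (0.93), Abcb4, the phospholipid transporter gene of the bile canaliculus (0.92), and Hnrnpr (0.90). Such values are the top of many candidates over 12 arrays. Of the 24 genes 3 were called, Tmem86a and Pik3r1 higher and Pdlim1 lower in Ppara KO, a share close to the 10.2% of all genes. These 24 came only from genes at or above the median level, a restriction that the 10.2% does not have.

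The genes around this group were taken from lists of the wider pathway. Of 65 measured of 76 listed, 7 were higher and 12 lower in Ppara KO livers, with a median difference of -0.03. That is 29.2% called, against 10.2% of all genes, a background not matched for expression level. Most of the 65 lay above the median level of all genes. With only genes at or above that level fitted, more genes were called although fewer were tested, 1258 higher and 1544 lower. The share called among such genes was thus above 10.2%, which also limits the comparison for each list below. Among pathway genes the calls were then 10 higher and 14 lower. Without WT 1, 3 and 5, the animals with high adipocyte markers, pathway calls were 2 higher and 8 lower. Which of the pathway genes named below lost their calls then is not given here. Without WT 4 or without Ppara KO 1, 4 were higher. Of the 19 called, 2 rises (Vldlr and Pparg) and 2 falls (Sort1 and Ppard) reached 1.5-fold.

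Among 16 genes that mature, anchor or regulate lipases, 1 was higher and 2 lower, or 18.8% called against an unmatched 10.2% of all genes. Lmf2, a relative of the lipase maturation factor gene Lmf1, fell by 0.38 (SE 0.071, adjusted p 0.00273), and Hspg2, the gene of the matrix proteoglycan perlecan, by 0.23 (SE 0.070, adjusted p 0.0457). Apoa4, the gene of an apolipoprotein of intestine and liver, rose by 0.38 (SE 0.101, adjusted p 0.0259). Apoa5, whose product promotes LPL action, had a difference of 0.24 (SE 0.087, adjusted p 0.102), Apoc1, the gene of a small exchangeable apolipoprotein, of 0.01 (SE 0.055) and Furin, the gene of a protease that cleaves LPL, of -0.08 (SE 0.057), and none of these 3 was called.

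Of 15 genes of lipoprotein assembly and secretion, 4 were higher and 3 lower, or 46.7% called against an unmatched 10.2% of all genes. Sort1, the gene of the sorting receptor sortilin that binds apolipoprotein B, fell by 0.80 (SE 0.104, adjusted p 0.000167), with 6.23 to 6.77 in Ppara KO livers and 6.97 to 7.53 in WT livers. Tm6sf2 and Pla2g12b, both needed in mice for the full lipid load of VLDL, fell by 0.48 (SE 0.076, adjusted p 0.000968) and 0.47 (SE 0.070, adjusted p 0.000532). Neither overlapped between the genotypes, as held for 6.51% of all genes. Mia2, which acts in export of large cargo from the endoplasmic reticulum, rose by 0.31 (SE 0.057, adjusted p 0.00246), and Dgat2, which makes triglyceride, by 0.33 (SE 0.071, adjusted p 0.00809). The other rises, named after their values were seen, were Mia3, a relative of Mia2 (0.24, SE 0.071), and Ces1d, a carboxylesterase gene (0.46, SE 0.130). Apob, which encodes the backbone protein of VLDL, P4hb, which encodes the other MTP subunit, and Sar1b, a GTPase gene of the secretory pathway, had differences of 0.03 (SE 0.054), 0.06 (SE 0.060) and 0.03 (SE 0.064) and were not called.

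**Figure D4:**
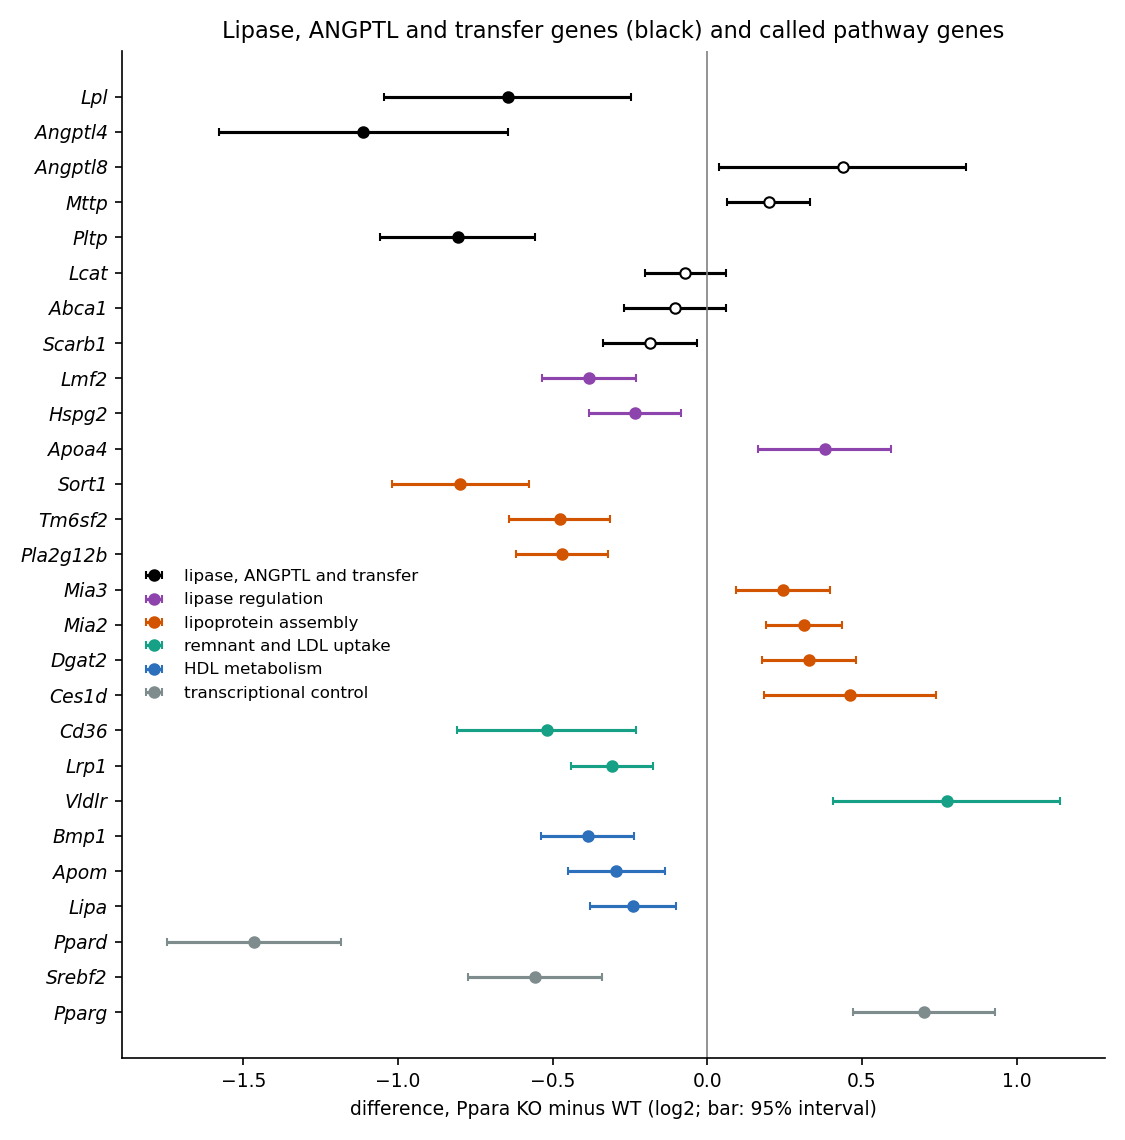
Log2 differences, Ppara KO minus WT, with their 95% intervals for the 8 lipase, ANGPTL and transfer genes (black, open where not called) and for the 19 called genes of the pathway lists (coloured by list). The falls run from -0.23 for Hspg2 to -1.47 for Ppard, and the rises from 0.24 for Mia3 to 0.77 for Vldlr.

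Of 7 genes of remnant and LDL uptake, 1 was higher and 2 lower, or 42.9% called against an unmatched 10.2% of all genes. Vldlr, the VLDL receptor gene, rose by 0.77 (SE 0.172, adjusted p 0.00940), with 4.89 to 6.05 in Ppara KO livers and 4.65 to 5.34 in WT livers, so the groups overlapped. Lrp1, the gene of a remnant receptor, fell by 0.31 (SE 0.062, adjusted p 0.00468) without overlap, as held for 6.51% of all genes. Cd36, a fatty acid uptake gene, fell by 0.52 (SE 0.136, adjusted p 0.0229). Apoe, which encodes the ligand of remnant receptors (0.35, SE 0.193), Lsr, a lipoprotein receptor gene (-0.17, SE 0.093), and Lrpap1, a chaperone gene of LRP1 (-0.14, SE 0.070), were not called.

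Among 12 genes of HDL metabolism 3 were lower and 0 higher, or 25% called against an unmatched 10.2% of all genes. Bmp1, whose protease matures apolipoprotein A-I, fell by 0.39 (SE 0.071, adjusted p 0.00240), Apom, the gene of an HDL apolipoprotein that carries sphingosine-1-phosphate, by 0.29 (SE 0.074, adjusted p 0.0184) and Lipa, the lysosomal acid lipase gene, by 0.24 (SE 0.065, adjusted p 0.0278). The HDL core apolipoprotein genes Apoa1 and Apoa2 had differences of -0.02 (SE 0.055) and 0.01 (SE 0.052), and Saa2, an acute phase HDL protein gene, of -0.23 with a wide SE of 0.63, and none of the 3 was called.

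Of 15 transcription factor genes known to act on this pathway, 1 was higher and 2 were lower. Called were 20%, against an unmatched 10.2% of all genes. Ppard, the PPARδ gene, fell by 1.47 (SE 0.132, adjusted p 4.28e-06), with 5.71 to 6.16 in Ppara KO livers and 7.01 to 7.97 in WT livers. Pparg, the PPARγ gene, rose by 0.70 (SE 0.108, adjusted p 0.000674), with 6.48 to 6.92 in Ppara KO livers and 5.60 to 6.20 in WT livers. Srebf2, whose product SREBP2 drives cholesterol synthesis, fell by 0.56 (SE 0.102, adjusted p 0.00245). Hnf4a, a master factor of hepatocytes (0.12, SE 0.071), Mlxipl, the gene of the carbohydrate sensor ChREBP (-0.20, SE 0.068, adjusted p 0.0724) and Rxra (0.05, SE 0.064), which encodes the binding partner of the PPARs, were not called.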

How the data were processed

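Liver RNA of 12 mice was measured on 12 arrays, 1 per animal, grouped by the genotype in the labels. The deposited values are log2 expression, made by the authors with RMA and Partek, per the submitters' processing notes, without versions. RMA hides a change shared by most genes and compresses dim ones. Of 41345 transcript clusters 23521 carry 1 symbol and gave 22180 genes, with the brightest cluster per gene. They were fitted with limma 3.58.1 in R 4.3.3 (1 mean per genotype, eBayes, 2-sided, Benjamini-Hochberg), which was tested on simulated data. Precision is limited by there being 6 arrays per genotype, and the median SE of a difference was 0.0926.

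The genes and lists were chosen with earlier results of these data known. Named were the 9 genes, up to 5 called genes with the smallest adjusted p and the 3 brightest uncalled genes of each pathway list, and the 3 genes most like each gene. Correlations were taken within each genotype with exact 2-sided permutation (smallest p 0.00139). Replicate numbers do not pair the animals. Alternatives covered the prior, array weights, scaling, filters, cluster choice, thresholds, a replicate block and animals left out.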

Additional observations from a re-analysis of the deposited data

Results flagged for a closer look

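Single animals far from the other 5 of their genotype were looked for in 41 named genes, or 82 groups of 6, of which chance alone would mark about 1 in 20. In 5 groups 1 animal stood apart. Scarb1 was at 8.81 in Ppara KO 3, against 9.07 to 9.20 in the other Ppara KO animals. Apoa5 was at 10.07 in Ppara KO 4, against 10.35 to 10.48 in the others of that genotype, and at 9.80 in WT 3, against 10.11 to 10.25 in the other WT animals. Apom was at 8.94 in WT 1, against 8.67 to 8.75, and Ppard at 5.71 in Ppara KO 5, against 6.00 to 6.16. Without Ppara KO 3 the Scarb1 difference was -0.13 (adjusted p 0.237).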

How the results depend on the processing

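Over 26 alternatives, 25 planned and 1 added after seeing the data, 23 refitted each difference and 3 changed only the threshold. The planned ones include the fit without WT 1, 3 and 5, animals marked out by their adipocyte marker values in these same data. No difference of the 8 genes changed sign in the 23, in which Pltp kept its call and Lcat, Abca1 and Scarb1 stayed uncalled. Angptl4 lost its call without WT 1, 3 and 5 (-0.81) and with the adipocyte marker mean as a covariate (-0.81). With treat, a test against a 1.2-fold change, Angptl4 (adjusted p 0.0504) and Lpl (0.812) lost their calls and Pltp (0.0157) kept it. Lpl lost it in 14 of 23 fits: -0.65 with a trended robust prior, with all transcript clusters tested and with the replicate block (adjusted p 0.0676), -0.28 without WT 1, 3 and 5 and -0.14 with the covariate. Mttp, at 0.20, was called with the trended prior, when only genes of median level or higher were fitted, and without WT 5. With each animal left out in turn, differences ran from -1.26 to -0.97 for Angptl4, 0.34 to 0.58 for Angptl8, -0.75 to -0.50 for Lpl, -0.89 to -0.73 for Pltp, -0.15 to -0.05 for Abca1 and 0.17 to 0.22 for Mttp, with 0 to 1 of the 8 genes higher, 2 to 3 lower, and 4 to 8 pathway genes higher. Of the 8, 1 was called higher with the trended prior and with the median filter, and 1 lower without WT 1, 3 and 5, with the covariate and with treat. Pathway genes higher were 4 with all clusters tested and at an adjusted p under 0.01, 2 without WT 1, 3 and 5, with the covariate and at 1.5-fold or more, and 1 with treat, and those lower were 2 with treat and at 1.5-fold. Over all genes, rises and falls (989 and 1279) were 390 and 618 without WT 1, 3 and 5, 360 and 557 with the covariate, 418 and 652 at an adjusted p under 0.01, 105 and 224 with treat, and 168 and 340 at 1.5-fold. Removing 3 animals or adding a covariate leaves fewer degrees of freedom; other causes were not tested. Same-numbered animals of the 2 genotypes had deviations correlated at -0.05 to 0.04, and in 0 of 6 pairs was an animal most like its own number. The block changed the call of Lpl and of no other of the 8 genes.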

Other observations

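ANGPTL4 and ANGPTL8 are set by fasting and feeding, so 2 further lists were written after the results were seen and support nothing by themselves. Of 10 genes that fasting raises in mouse liver, 5 were lower in Ppara KO livers and 1 higher, with 60% called against 10.2% of all genes. That background is not matched for expression level. The falls were Igfbp1, Insig2 (-1.03, SE 0.163), Irs2 (-0.95, SE 0.224), G6pc (-0.61, SE 0.172) and Fgf21 (-1.37, SE 0.311), and the rise was Pck1, the gluconeogenic enzyme gene (0.30, SE 0.086). Pdk4 (-0.84, SE 0.327), Cpt1a (0.23, SE 0.086), Ppargc1a (-0.14, SE 0.115) and Sesn1 (0.02, SE 0.071) were not called. Insig2 encodes a brake on SREBP processing, Irs2 an insulin receptor substrate, G6pc the catalytic subunit of glucose-6-phosphatase and Fgf21 a liver hormone that is itself a PPARα target. Of 9 genes that feeding raises, 33.3% were called, against the same 10.2% of all genes. Thrsp rose (0.93, SE 0.127), Pnpla3 (-1.80, SE 0.394) and Scd1 (-0.42, SE 0.107) fell, and 6 were not called. Srebf1, the gene of the lipogenic factor SREBP1, was among those 6, with a difference of 0.20 (SE 0.148, adjusted p 0.468). Feeding state is not among the labels used here, and its part in the Angptl4 and Angptl8 values was not tested.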
